A study of Mus musculus with 4 samples.

Results

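The CCN matricellular genes and target genes of the Hippo pathway were examined in the intestinal muscle of mice whose smooth muscle cells lack Dicer, the enzyme that cuts mature miRNAs from their precursors. The set held 8 of the 20461 genes with a probe set of their own on the Affymetrix GeneChip Mouse Genome array, namely Ctgf, Cyr61, Nov, Wisp1, Wisp2, Ankrd1, Amotl2 and Yap1, and was taken by an exact match of the gene symbol, which gave 15 of the 45101 probe sets. RNA came from the jejunal muscularis, stripped of mucosa and submucosa, of 4 mice at the age of 3 weeks, with 1 array per mouse. The 2 smDicer KO mice were smDicer-/-;Cre-GFP/+, which the study's methods give as Dicer lox/lox and its table of mice as Dicer lox/Δ, with Δ the deleted allele. Both sources add smMHC/Cre/eGFP, a transgene in which the promoter of smooth muscle myosin heavy chain (Myh11) drives Cre and eGFP. The 2 controls were wild type (WT). Cre acts in smooth muscle cells, so the other cells of the muscularis keep Dicer on at least 1 allele. The study's methods name its WT mice as siblings of transgenic mice and, elsewhere, as smMHC Cre-GFP/+, but do not tie either to the arrays, and the labels do not say whether the mice of a group came from separate litters, so the p-values measure the spread between these arrays, and the sex of the WT mice is not given beside female smDicer KO mice. All values are log2 values from RMA, a method that corrects background and gives the arrays a common distribution, and a log2 fold change is the mean of smDicer KO minus the mean of WT with 2 arrays in each group.

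CCN proteins are secreted into the extracellular matrix, where they bind integrins, heparan sulfate proteoglycans and growth factors rather than forming fibres. Ctgf (now Ccn2) and Cyr61 (Ccn1) are induced by mechanical stretch, TGF-beta and serum, and Nov (Ccn3), Wisp1 (Ccn4) and Wisp2 (Ccn5) are further members of the family. Yap1 encodes YAP, a transcriptional coactivator that the Hippo kinases keep out of the nucleus, and together with its relative TAZ it binds TEAD factors on the promoters of Ctgf, Cyr61, Ankrd1 and Amotl2. Smooth muscle cells are contractile cells under constant tension, and several of these genes, Ctgf and Cyr61 among them, are also known targets of the serum response factor SRF.

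Ctgf, Cyr61 and Ankrd1 had higher values in smDicer KO, with log2 fold changes of 0.998, 0.92 and 1.89 on the probe set with the highest mean, and the other 5 genes lay between -0.48 and 0.10. By limma with Benjamini-Hochberg adjustment over all probe sets, 0 of the 15 member probe sets passed an adjusted p of 0.05, where 0.0% of all probe sets passed. At an unadjusted p under 0.05, 3 member probe sets had higher values in smDicer KO (1 of Ctgf and both of Ankrd1) and 1 had lower values (Yap1), where 6.41% of all probe sets had higher and 9.39% lower values. Both smDicer KO arrays lay above both WT arrays on 5 member probe sets and below on 1, against 20.6% and 28.5% of all probe sets. Counted by gene, 2 of 8 had higher and 0 lower values at the unadjusted p, against 7.2% and 10.5% of all genes, and the smDicer KO arrays lay above WT in 3 and below in 0, against 21.5% and 30.2%. The median log2 fold change was -0.0023 over the 8 genes and -0.04 over all genes, and it was 0.11 over the 8 genes after cyclic loess scaling.

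**Figure D1:**
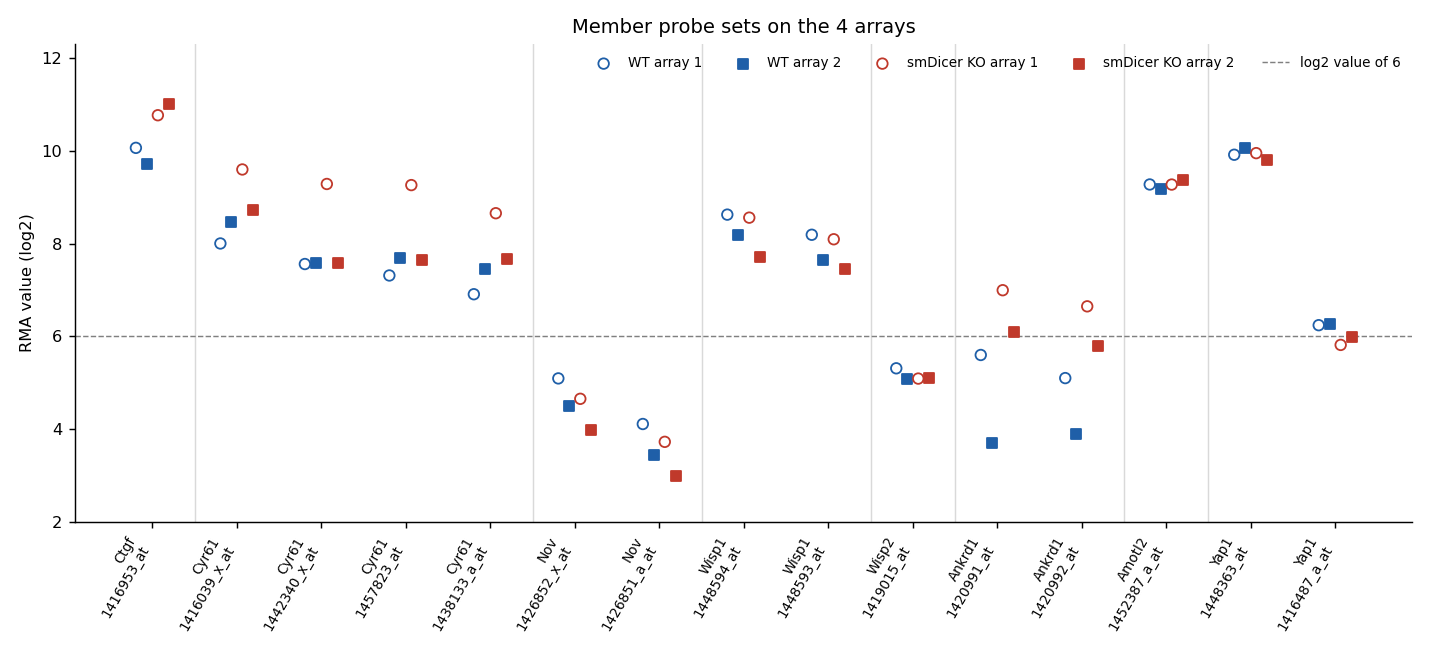
Log2 values (vertical axis) of the 15 member probe sets on the 2 WT arrays (blue) and the 2 smDicer KO arrays (red), where open circles are array 1 and filled squares array 2 of a group and the dashed line marks a log2 value of 6. Both red points lie above both blue points for Ctgf, 2 of the 4 Cyr61 probe sets and both Ankrd1 probe sets.

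**Figure D2:**
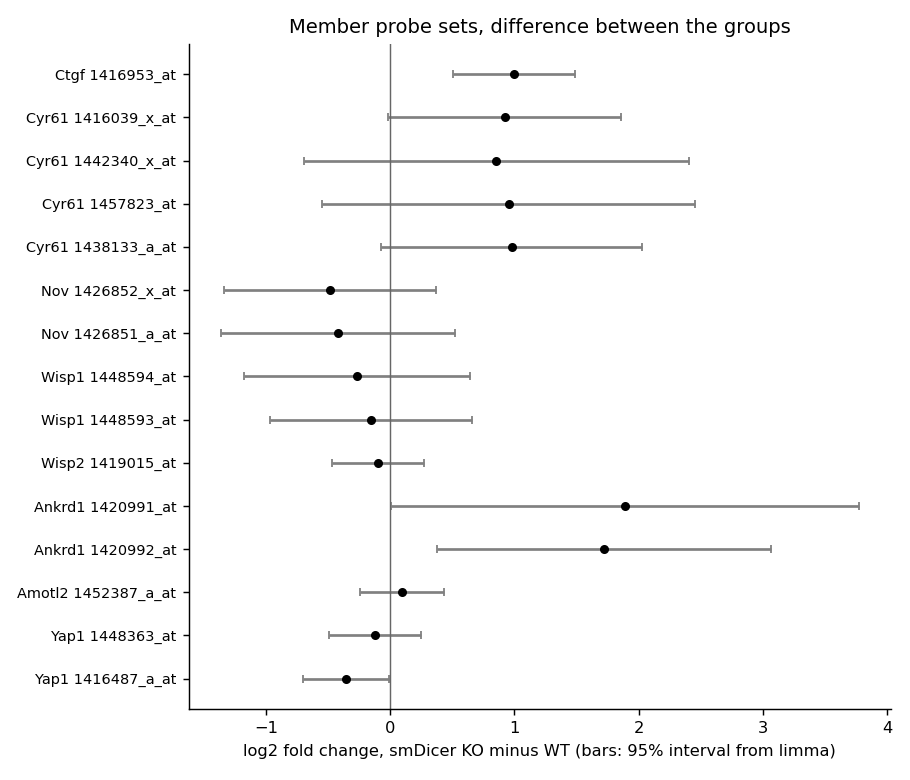
Log2 fold change of smDicer KO over WT for each member probe set (points) with the 95% interval in limma (bars). The intervals of Ctgf, both Ankrd1 probe sets and 1 Yap1 probe set do not reach 0, before any adjustment for the number of probe sets.

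The probes do not read all members equally well. A log2 value under 6 lies near background on these arrays, and 11 of the 15 probe sets, from 6 of the 8 genes, reached 6 on 2 or more arrays. Nov and Wisp2 stayed below it in both groups, and Ankrd1 was below it in WT. The 6 genes that reached it include the genes with high smDicer KO values by construction, so no count is taken over them.

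The promoters were searched for CATTCC, the motif that TEAD factors read. RefSeq promoters of build GRCm38.p6, from 250 bases before to 50 bases after the transcription start, were matched for 4 of the 8 members, Cyr61, Ankrd1, Amotl2 and Yap1. Ctgf, Nov, Wisp1 and Wisp2 had no promoter sequence in the set used and were not searched. All 4 promoters held CATTCC on one strand or the other, and 14.7% of all 32851 RefSeq mouse promoters of that length held it. Known YAP targets, whose promoters TEAD factors bind, were picked for the set, so these matches are a description and no test of the motif. The Cyr61 promoter (chr3:145649936-145650235, minus strand) and the Ankrd1 promoter (chr19:36119795-36120094, minus strand) are shown whole because these genes had higher values in smDicer KO, and they are printed 5′ to 3′ along the gene with the motifs in capitals.
Cyr61 promoter: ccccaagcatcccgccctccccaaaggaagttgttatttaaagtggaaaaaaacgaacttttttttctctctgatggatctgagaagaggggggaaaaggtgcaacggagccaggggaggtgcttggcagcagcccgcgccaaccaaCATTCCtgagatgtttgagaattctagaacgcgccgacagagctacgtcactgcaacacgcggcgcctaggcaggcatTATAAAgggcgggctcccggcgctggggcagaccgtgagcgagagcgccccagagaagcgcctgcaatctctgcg
Ankrd1 promoter: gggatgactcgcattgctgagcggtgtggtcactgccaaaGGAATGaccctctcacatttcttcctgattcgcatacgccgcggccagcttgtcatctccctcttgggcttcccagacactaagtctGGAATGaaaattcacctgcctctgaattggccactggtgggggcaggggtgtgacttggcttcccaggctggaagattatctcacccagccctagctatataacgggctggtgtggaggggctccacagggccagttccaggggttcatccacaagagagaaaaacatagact
In Cyr61, CATTCC began at position -103 on the strand of the gene and TATAAA, the TATA motif held by 13.6% of promoters, began at -25. In Ankrd1 the motif lay on the opposite strand, read as GGAATG, at -210 and again at -123. Amotl2 (chr9:102717554-102717853, plus strand) and Yap1 (chr9:8004547-8004846, minus strand), whose groups overlapped on the probe sets with the highest mean, are shown by the 30 bases around the motif.
Amotl2 site: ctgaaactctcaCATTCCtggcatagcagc
Yap1 site: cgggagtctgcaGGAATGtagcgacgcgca
The Amotl2 match began at -65 on the strand of the gene, and the Yap1 match at -141 on the opposite strand. The same letters were thus present in genes with and without higher values. The AP-1 motif TGANTCA, held by 7.81% of promoters, and the CArG box, the site of SRF, held by 1.63%, had no match in these 4 windows on either strand, which says only that those letters are not in these bases.

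**Figure D3:**
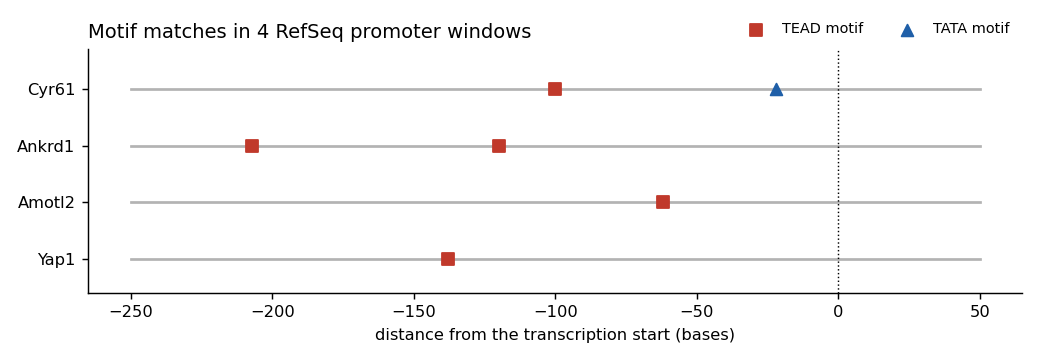
Positions of motif matches (markers, at the middle of the match) along 4 promoter windows (grey lines), as distance in bases from the transcription start at 0. Each promoter holds the TEAD motif (squares), Ankrd1 holds it at 2 positions, and the TATA motif (triangle) was matched in Cyr61.

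Ctgf, which encodes the connective tissue growth factor of wound repair and fibrosis, gave log2 values of 10.06 and 9.71 in WT and 10.77 and 10.999 in smDicer KO. The groups did not overlap, and the gap between them was wider than the gap within either. The log2 fold change was 0.998 (SE, the standard error, 0.18, 95% interval 0.51 to 1.49, adjusted p = 0.229 in limma), which is 2.0-fold, and it lay between 0.82 and 1.18 with each array left out in turn. Its gene lies on chromosome 10 and was read by 1 probe set. In bulk tissue, more cells of a type and more RNA per cell cannot be told apart, here or for any gene below.

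Cyr61, which encodes a matrix ligand of integrins and is itself an immediate early gene, was read by 4 probe sets that share 1 locus on chromosome 3. On 1416039_x_at, the probe set with the highest mean, the log2 values were 8.003 and 8.47 in WT and 9.60 and 8.72 in smDicer KO. On 1438133_a_at they were 6.91 and 7.46 in WT and 8.65 and 7.67 in smDicer KO. Both smDicer KO arrays lay above WT on these 2 probe sets, but smDicer KO array 2 cleared WT array 2 only narrowly. The log2 fold changes were 0.92 (SE 0.35, 95% interval -0.02 to 1.86, adjusted p = 0.32 in limma) and 0.98 (SE 0.39, adjusted p = 0.334).

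The other Cyr61 probe sets, 1442340_x_at and 1457823_at, share an inner alignment of 389 bases that ends 1019 bases from the 3' end of the 2965-base alignment of the gene. On 1442340_x_at the log2 values were 7.56 and 7.59 in WT and 9.28 and 7.58 in smDicer KO. On 1457823_at they were 7.31 and 7.69 in WT and 9.26 and 7.65 in smDicer KO. On these probe sets smDicer KO array 2 did not exceed WT array 2, and the high value was that of smDicer KO array 1 alone. The log2 fold changes were 0.85 (SE 0.58, adjusted p = 0.525 in limma) and 0.95 (SE 0.56, adjusted p = 0.469).

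All 4 Cyr61 probe sets thus gave a log2 fold change close to 0.9 with smDicer KO array 1 highest, and differed in how far array 2 followed. The gap between the smDicer KO arrays was 0.87, 0.99, 1.71 and 1.61 on the probe sets in the order given, and a gap as large was found in 5.58%, 4.39%, 1.82% and 1.95% of all probe sets. Without smDicer KO replicate 1 the log2 fold changes were 0.48, 0.48, -0.0005 and 0.15. The probe sets read 1 gene and are not replicates of it, and 2 of the probe sets carry the x_at suffix, which marks probes that can match other transcripts.

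Ankrd1, a YAP target in many cells that encodes the ankyrin repeat protein CARP of striated muscle, had WT values that all lay near background. On 1420991_at the log2 values were 5.601 and 3.72 in WT and 6.996 and 6.10 in smDicer KO. On 1420992_at they were 5.10 and 3.90 in WT and 6.65 and 5.79 in smDicer KO. The smDicer KO arrays lay above WT on both probe sets, and within each genotype array 1 was above array 2. The log2 fold changes were 1.89 (SE 0.71, 95% interval 0.01 to 3.77, adjusted p = 0.315 in limma) and 1.72 (SE 0.51, 95% interval 0.37 to 3.06, adjusted p = 0.262).

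The WT arrays disagreed on Ankrd1 more than on any other member. The gap between them was 1.89 on 1420991_at and 1.20 on 1420992_at, and gaps as large were found in 0.18% and 0.463% of all probe sets. Without WT replicate 1 the log2 fold change on 1420991_at was 2.83, and without WT replicate 2 it was 0.95. Because the WT means were near background, the size of the difference depends on how the probes read low levels.

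Nov, a CCN protein that in many cells counters the actions of Ctgf, had log2 values of 5.10 and 4.51 in WT and 4.66 and 3.98 in smDicer KO on 1426852_x_at. On 1426851_a_at the values were 4.11 and 3.45 in WT and 3.73 and 2.99 in smDicer KO. The groups overlapped on both probe sets, which lay near background throughout. The log2 fold changes were -0.48 (SE 0.32, adjusted p = 0.517 in limma) and -0.42 (SE 0.35, adjusted p = 0.605). With the replicate number as a block both had an unadjusted p under 0.05 and an adjusted p of 0.313 and 0.328. With each array left out in turn, the log2 fold changes lay between -0.82 and -0.14 and between -0.79 and -0.05.

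Wisp1, a CCN gene induced by WNT signalling and expressed by fibroblasts, was well above background. Its log2 values were 8.62 and 8.18 in WT and 8.56 and 7.71 in smDicer KO on 1448594_at, and 8.19 and 7.66 in WT and 8.09 and 7.44 in smDicer KO on 1448593_at. Array 1 exceeded array 2 within each genotype and the groups overlapped. The log2 fold changes were -0.27 (SE 0.34, 95% interval -1.17 to 0.64, adjusted p = 0.75 in limma) and -0.16 (SE 0.30, adjusted p = 0.848). The interval includes the log2 fold change of none of Ctgf, Cyr61 and Ankrd1, but the difference between genes was not tested.

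Wisp2, the CCN protein without the C-terminal domain of the family, had log2 values of 5.31 and 5.09 in WT and 5.09 and 5.12 in smDicer KO, near background and overlapping. Its log2 fold change came to -0.10 (SE 0.14, 95% interval -0.47 to 0.27, adjusted p = 0.773 in limma). Nov and Wisp2 were thus the CCN genes near background, where a difference could go unseen.

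Amotl2, an angiomotin family scaffold that binds YAP and is also its target, had log2 values of 9.27 and 9.17 in WT and 9.27 and 9.36 in smDicer KO. The groups overlapped, and the log2 fold change was 0.10 (SE 0.13, 95% interval -0.24 to 0.43, adjusted p = 0.759 in limma). The upper end of its interval lies below the lower end of that of Ctgf, but the difference between the genes was not tested.

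Yap1 itself was read by 2 probe sets on chromosome 9. On 1448363_at the log2 values were 9.91 and 10.07 in WT and 9.95 and 9.79 in smDicer KO, which overlap. The log2 fold change came to -0.12 (SE 0.14, 95% interval -0.49 to 0.25, adjusted p = 0.718 in limma) and 0.01 after cyclic loess scaling. On 1416487_a_at the values were 6.24 and 6.26 in WT and 5.82 and 5.98 in smDicer KO, so both smDicer KO arrays lay below WT and close to the background limit. There the log2 fold change was -0.35 (SE 0.13, 95% interval -0.70 to -0.01, adjusted p = 0.31).

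The rest of the pathway was read from 5 lists that held 73 genes, of which 71 were measured, each through the probe set of highest mean. Of these, 27 had a log2 fold change above 0 and 44 below it, with 4 higher and 13 lower at an unadjusted p under 0.05 and a median of -0.13, while 0 passed the adjusted p in limma. Of all genes, 44.4% had a log2 fold change above 0 and 55.6% below it, and 7.2% were higher and 10.5% lower at the unadjusted p, so that the share of higher genes at the unadjusted p was no larger than over all genes. The 13 lower genes kept a log2 fold change below 0 and the 4 higher genes one above 0 under centring on array medians and under cyclic loess scaling, which left 17 and 15 of the 17 at the unadjusted p. The counts of 4 and 13 were 1 and 6 without WT replicate 1 and 0 and 3 without WT replicate 2. Without smDicer KO replicate 1, which leaves 1 smDicer KO array that is assumed to vary like WT, 378 of all probe sets passed the adjusted p, among them F3, Nuak2 and Areg of these lists. In that fit the count of higher genes at the unadjusted p was 7, as large as without smDicer KO replicate 2. Lats2, Ptpn14, Jub, Tgfb2 and Edn1 stand on more than 1 of the lists.

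The list of YAP's relative TAZ, the TEAD factors and the TEAD cofactors Vgll3 and Vgll4 had lower values in 6 of 7 genes, against 55.6% of all genes. Its median log2 fold change was -0.39. At the unadjusted p 4 were lower, against 10.5% of all genes, and in 5 both smDicer KO arrays lay below WT, against 30.2%. Wwtr1, the gene of TAZ, had log2 values of 11.39 and 11.59 in WT and 10.96 and 10.67 in smDicer KO, without overlap. Its log2 fold change came to -0.68 (SE 0.17, adjusted p = 0.241 in limma), and its other probe sets gave -0.80 and -0.75. Tead2, a TEAD factor, had 7.03 and 7.22 in WT and 6.43 and 6.07 in smDicer KO, with a log2 fold change of -0.88 (SE 0.18, adjusted p = 0.233). Tead3 had -0.49, and Vgll4, a cofactor that competes with YAP for TEAD, -0.39. Tead1 and Tead4, near background, had -0.23 and -0.11, and Vgll3, a cofactor like Vgll4, 0.08, all named after their values were seen.

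The list of the Hippo kinases, which hold YAP and TAZ in the cytoplasm, also holds their scaffolds and other regulators. Of its 17 genes 16 were measured. Lower values were found in 11 of these, against 55.6% of all genes, with a median of -0.30. At the unadjusted p 5 were lower, against 10.5% of all genes, and 0 higher, and in 10 both smDicer KO arrays lay below WT, against 30.2%. Amotl1, an angiomotin like Amotl2, had log2 values of 9.62 and 9.63 in WT and 8.89 and 8.72 in smDicer KO, with a log2 fold change of -0.82 (SE 0.13, adjusted p = 0.219 in limma). The groups were far apart beside their spread, in contrast to Amotl2, whose groups overlapped. Mobkl1a, a coactivator of the LATS kinases, had 9.03 and 9.17 in WT and 8.36 and 8.47 in smDicer KO, with a log2 fold change of -0.69 (SE 0.13, adjusted p = 0.229). Frmd6, a membrane scaffold upstream of the kinases, had -0.67, and the kinase gene Lats2, itself a YAP target, had -0.54, with 6 probe sets between -0.63 and 0.57 of which the 3 with a mean of at least 6 were all below 0. The kinase genes Lats1, Stk3 and Stk4, named after their values were seen, had 0.09, -0.54 and 0.08, and the other Stk3 probe set with a mean of at least 6 had -1.01 (SE 0.17, adjusted p = 0.223).

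Of the 25 other target genes of YAP and TAZ, 11 were higher and 14 lower, against 44.4% and 55.6% of all genes. At the unadjusted p 2 were higher and 5 lower, against 7.2% and 10.5%, and the median was -0.11. F3, which encodes tissue factor, had log2 values of 9.89 and 9.90 in WT and 8.85 and 7.46 in smDicer KO, with a log2 fold change of -1.74 (SE 0.48, adjusted p = 0.254 in limma). Foxf2, a forkhead factor of gut mesenchyme, had 7.23 and 7.78 in WT and 5.16 and 4.61 in smDicer KO, with a log2 fold change of -2.62 (SE 0.29, adjusted p = 0.215), with smDicer KO near background and its other probe set near background on all arrays at 0.01. Tgm2, which crosslinks matrix proteins, had -0.36 and lay below 0 on all 5 of its probe sets with a mean of at least 6, and Arhgap29, a regulator of RhoA, had 0.28.

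Among the higher targets, Nuak2, a kinase of the AMPK family, and Areg, an epidermal growth factor receptor ligand, were named after their values were seen. Nuak2 had log2 values of 5.29 and 5.37 in WT and 6.46 and 8.27 in smDicer KO, and Areg 3.44 and 3.35 in WT and 4.87 and 7.07 in smDicer KO. Both were highest on smDicer KO array 2, as were the markers of mucosal epithelium, the layer removed by dissection, whose 19 genes stood 3.28 above their WT mean on smDicer KO array 1 and 5.66 on array 2 in the median. The part of the epithelium in these values was not tested. Thbs1, a matricellular thrombospondin also named after its values were seen, had 0.64 (SE 0.31, adjusted p = 0.398) and, as with Cyr61, was highest on smDicer KO array 1.

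**Figure D4:**
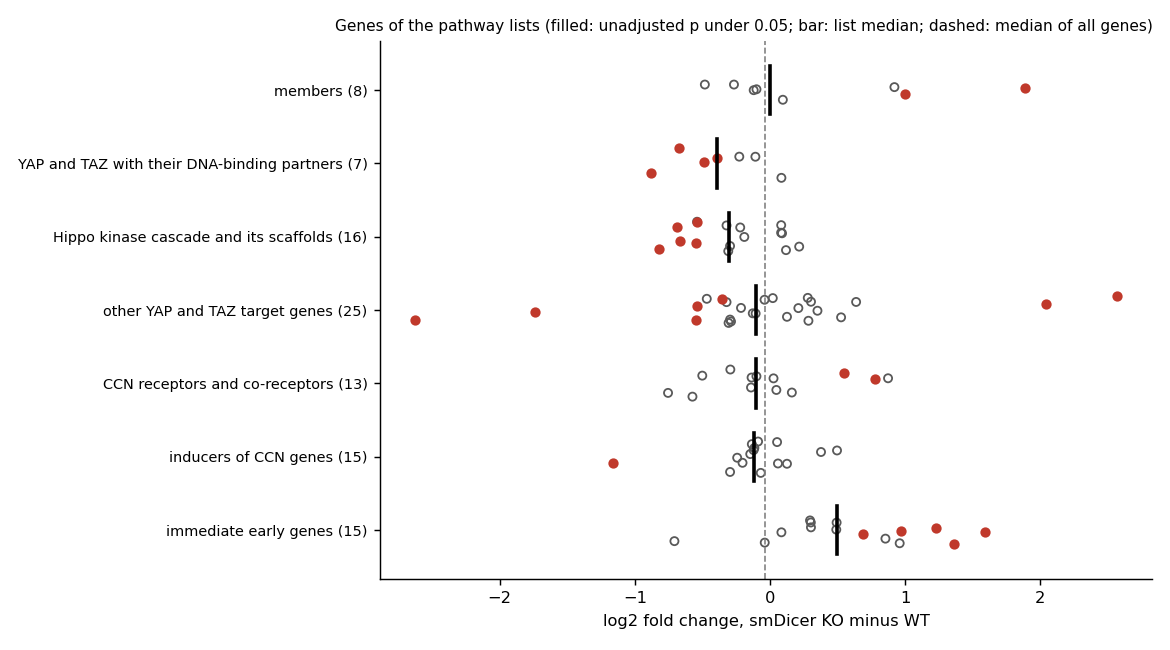
Log2 fold change of smDicer KO over WT for each gene of 7 lists (points, 1 probe set per gene, number of genes in brackets), with filled points for an unadjusted p under 0.05, bars for list medians and a dashed line for the median of all genes at -0.04. Genes of YAP and TAZ partners and of the Hippo cascade lie mostly to the left of the dashed line, immediate early genes mostly to its right.

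Of the 13 receptors through which CCN proteins act, 6 had higher and 7 lower values, against 44.4% and 55.6% of all genes. At the unadjusted p 2 were higher (Itga6 and Itgb2) and 0 lower, against 7.2% and 10.5%. The median over the 13 was -0.10. Itgb1 and Itgav, the subunits with the highest means, had log2 fold changes of -0.57 (SE 0.26, adjusted p = 0.374 in limma) and -0.14 (SE 0.15, adjusted p = 0.691). Itga6, a laminin and CCN receptor subunit that epithelium also expresses, had log2 values of 8.74 and 8.38 in WT and 8.99 and 9.67 in smDicer KO, with a log2 fold change of 0.77 (SE 0.28, adjusted p = 0.309), again with smDicer KO array 2 highest. Itgb2, the integrin subunit of leukocytes, lay near background with 5.11 and 5.17 in WT and 5.57 and 5.80 in smDicer KO, and had 0.54 (SE 0.14, adjusted p = 0.247), named after its values were seen. Itgb3, also named so, had 9.62 and 9.55 in WT and 10.96 and 9.96 in smDicer KO, with a log2 fold change of 0.87 (SE 0.35, adjusted p = 0.334), with array 1 highest as for Cyr61.

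The genes that induce CCN expression, of the TGF-beta, RhoA, SRF and endothelin pathways, had lower values in 10 of 15 measured genes of the 16 listed, with 1 lower and 0 higher at the unadjusted p, where 55.6% of all genes were lower and 10.5% lower at the unadjusted p. The median was -0.12, and 0.01 after cyclic loess scaling. That scaling also moved the median of the other targets to 0.02 and of the receptors to 0.03, so these 3 lists had no stable sign. Srf had log2 values of 10.80 and 11.08 in WT and 10.10 and 9.46 in smDicer KO, without overlap. Its log2 fold change came to -1.16 (SE 0.26, adjusted p = 0.234 in limma) and -0.79 on its other probe set. Rhoa and Tgfbr2, the list members with the highest means, had -0.15 and 0.06, and the TGF-beta receptor gene Tgfbr1, named after its values were seen, 0.50 (SE 0.20, adjusted p = 0.337).

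Immediate early genes, which cells switch on within minutes of a stimulus or of handling, shared the array pattern of Cyr61 in part. Of 15 genes, 13 had a log2 fold change above 0 and 2 below it, against 44.4% and 55.6% of all genes. At the unadjusted p 5 were higher, against 7.2% of all genes. In 6 both smDicer KO arrays lay above WT, against 21.5%, and the median was 0.49. Fos had log2 values of 9.58 and 10.26 in WT and 11.90 and 10.66 in smDicer KO, with a log2 fold change of 1.36 (SE 0.48, adjusted p = 0.304 in limma). Egr1 had 9.14 and 10.08 in WT and 11.56 and 9.58 in smDicer KO, which overlap, a log2 fold change of 0.96 (SE 0.74, adjusted p = 0.575). Both were highest on smDicer KO array 1 and higher on WT array 2 than on WT array 1, as was Cyr61 on all of its probe sets. Klf4 had 1.59 (SE 0.26, adjusted p = 0.223), Junb 1.23 (SE 0.21, adjusted p = 0.223) and Zfp36 0.69 (SE 0.20, adjusted p = 0.258), each with both smDicer KO arrays above WT. Klf4 had 8.97 and 8.53 in WT and 10.06 and 10.62 in smDicer KO, the reverse of the array order of Cyr61. Like the median of the epithelium markers, Klf4 was highest on smDicer KO array 2, but in WT that median was higher on array 2 and Klf4 on array 1. The part of the epithelium in the Klf4 values was not tested. Junb followed the order of Cyr61, with 6.72 and 7.09 in WT and 8.30 and 7.96 in smDicer KO. Zfp36 had 8.39 and 8.86 in WT and 9.30 and 9.33 in smDicer KO.

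The median of the immediate early list stood at -0.34 and 0.34 in WT and at 0.67 and 0.33 on the smDicer KO arrays, relative to the WT mean of each gene, so WT array 2 and smDicer KO array 2 were level. The summed log2 level of the list was 115.2 and 125.03 in WT and 132.8 and 125.09 in smDicer KO. The part of this pattern in the Cyr61 values was not tested.

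The genes whose array pattern was most like that of Cyr61 were found among 10748 genes with a mean of at least 6 by the root mean square distance of values centred on the gene's mean over the 4 arrays. The closest was Ier2, an immediate early gene, at 0.0794, with log2 values of 7.30 and 7.68 in WT and 8.81 and 8.12 in smDicer KO, followed by Ms4a7 at 0.0997 and 9030425L15Rik at 0.107. Within a distance of 0.2 lay 26 genes for Cyr61 and 116 for Ctgf. For Ctgf the closest were 4930506M07Rik at 0.0148, Slc36a1, an amino acid transporter gene, at 0.0266 and Ptprr, a tyrosine phosphatase gene, at 0.042. With 4 arrays many genes take such a pattern, and the distance is a description.

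Markers of the cells in the tissue were read on the same scale. Beside the marker counts, 44.4% of all genes were higher and 55.6% lower, with 7.2% and 10.5% at the unadjusted p. The smooth muscle markers, which define the labelled tissue, were strong on all arrays, with Acta2 between 14.25 and 14.46, and had 1 gene higher and 7 lower, 1 of them (Smtn) at the unadjusted p. Their median stood at 0.01 and -0.01 in WT and at -0.06 and -0.48 in smDicer KO, and their summed log2 level was 104.3 and 104.8 in WT and 103.7 and 99.4 in smDicer KO. The list of TAZ, TEAD factors and cofactors had medians of -0.08 and 0.08 in WT and -0.31 and -0.47 in smDicer KO. The Hippo cascade had -0.02 and 0.02 in WT and -0.30 and -0.33 in smDicer KO. Acta2 was the highest of all probe sets on each array, and signals near the top of the range can be saturated. Smtn and Myocd lay below the top, with WT means of 12.45 and 8.92 and log2 fold changes of -0.85 and 0.03. How the marker medians relate to those of the pathway lists was not tested.

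Markers of other cells also differed between the arrays. Of 19 measured genes of the mucosal epithelium, 19 were higher, 14 at the unadjusted p, with a summed log2 level of 112.5 and 141.1 in WT and 180.8 and 224.5 in smDicer KO, and Muc2, the mucin of goblet cells, had 6.75 and 6.44 in WT and 9.65 and 11.60 in smDicer KO. Mesothelium, the serosal cell layer, had 7 of 7 genes higher, 4 at the unadjusted p, with medians of 0.45 and 0.42 on the smDicer KO arrays and a summed log2 level of 66.6 and 65.9 in WT and 69.7 and 70.02 in smDicer KO. Msln, the mesothelin gene, had 9.76 and 9.93 in WT and 10.58 and 10.64 in smDicer KO. Krt19 stands on the mesothelium and the epithelium list. Macrophages had 7 of 9 higher, 3 at the unadjusted p, and 2 lower, 1 at the unadjusted p, with a median of 0.39. The part of these cells in the Ctgf, Cyr61 and Ankrd1 values was not tested.

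Fibroblasts, a main source of CCN proteins, had 6 of 12 markers higher and 6 lower, with 2 lower at the unadjusted p and a summed log2 level of 133.9 and 132.9 in WT and 133.7 and 129.7 in smDicer KO. Their median log2 fold change was 0.02, and -0.03 after centring on array medians. Endothelium, another source, had 5 of 10 higher and 5 lower, with 2 higher and 1 lower at the unadjusted p, and a median of 0.06. Pancreatic acinar markers, 6 of 8 listed being measured, differed most within genotypes, at -1.74 and 1.74 in WT and -2.06 and 5.16 in smDicer KO. Non-overlapping groups were found in 0 of the 6, against 21.5% of all genes with smDicer KO above and 30.2% below WT.

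**Figure D5:**
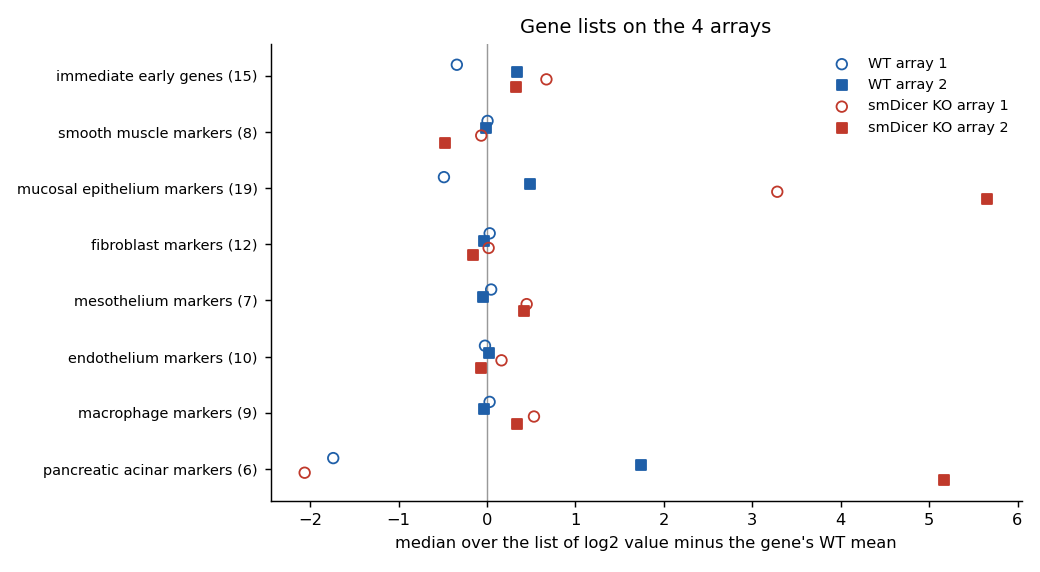
Median over each list of the log2 value minus the gene's WT mean (horizontal axis, log2 units) on each of the 4 arrays, for immediate early genes and markers of 7 cell types, with the number of genes in brackets. The immediate early list is highest on smDicer KO array 1, the epithelium markers on smDicer KO array 2, and the mesothelium markers are alike on both smDicer KO arrays.

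The arrays had medians between 5.17 and 5.22, and array pairs correlated over probe sets, which are no replicates, with a Pearson's r of 0.992 within WT, 0.973 within smDicer KO and 0.953 to 0.979 across groups. Dicer1, the targeted gene, had log2 values of 7.82 and 8.08 in WT and 7.52 and 7.36 in smDicer KO, with a log2 fold change of -0.51 (SE 0.16, adjusted p = 0.271 in limma), and its probe sets can lie outside the deleted part. With 2 arrays a group, the smallest 2-sided p of an exact permutation test is 0.333, so no single value was tested that way.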

How the data were processed

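RNA from the jejunal muscularis of 2 WT and 2 smDicer KO mice was hybridized to 1 array per mouse. The authors normalized the arrays with RMA and deposited the log2 values, which were used without further scaling. Their tables of fold changes and p-values served only for gene symbols, titles and alignments, whose build is not given in the sources used here. limma 3.58.1 in R 4.3.3 (lmFit, eBayes, prior degrees of freedom 2.49, prior variance 0.0249) compared the groups over 45101 probe sets, 64 controls included, with Benjamini-Hochberg adjustment. Other software was scipy 1.17.1, numpy 2.4.6, pandas 2.3.3 and matplotlib 3.10.9 under Python 3.11.15. The 36804 probe sets with 1 symbol gave 20461 genes, each represented by the probe set of highest mean, and 2005 with several symbols were left out. Arrays give no counts, and their number limits the precision.

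The members and gene lists were chosen with earlier results of these data known. Genes were named by rule: every member probe set, and of each other list the 2 with the highest mean and up to 3 with the smallest unadjusted p under 0.05, non-overlapping groups and a mean of at least 6 in the higher group. Some of the genes so chosen are given by their list's counts only. Others are said to be named after their values were seen. Promoters came from RefSeq (GRCm38.p6), and all 8 members matched its gene table. Alternatives were eBayes with trend and robust, an unmoderated model, a filter on low values (18345 probe sets with 6 or more on 2 or more arrays), centring, cyclic loess, controls left out, a replicate block, each array left out, and the mean of a gene's probe sets. The script was tested on simulated data.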

Additional observations from a re-analysis of the deposited data

How the results depend on the processing

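Under 12 alternatives the members gave 166 log2 fold changes, of which 0 passed the adjusted p and 6 changed sign. The signs changed for Yap1 1448363_at, at 0.0072 after cyclic loess, and with 1 array left out for Cyr61 1442340_x_at (-0.0005 to 1.71), Wisp1 1448594_at (-0.69 to 0.16) and 1448593_at (-0.48 to 0.17) and Wisp2 (-0.21 to 0.0101). The median over the 15 member probe sets, 0.10, was -0.0005 to 0.17 with 1 array left out. With the filter on low values, which kept 11 of them, it was 0.85. That filter dropped the Nov and Wisp2 probe sets and Ankrd1 1420992_at, and kept Ankrd1 1420991_at through its smDicer KO arrays. Of the 11, 4 read Cyr61. The 0.85 thus depends on which probe sets were kept and is no result about the members.

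Member probe sets with higher values at the unadjusted p, 3 as reported, were 1 in the unmoderated model, 5 after cyclic loess and 1 to 6 with 1 array left out. Those with lower values, 1 as reported, were 0 with trend and robust, with the filter and after cyclic loess, and 0 to 1 with 1 array left out. The 4 higher pathway genes were 11 after cyclic loess and 0 to 7 with 1 array left out, and the 13 lower were 3 to 19. At the adjusted p, 0 to 3 pathway genes and 0 to 378 of all probe sets passed with 1 array left out. Over all probe sets, 2889 were higher and 4237 lower at the unadjusted p, 3831 and 3284 after cyclic loess, 2464 and 5186 after centring, and 1589 and 2788 with the filter. The unmoderated model gave 1598 higher, and leaving out 1 array 813 to 4258 higher and 1436 to 5659 lower. The cause of these shifts was not tested.

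The groups share replicate numbers that the labels do not tie to a litter or day, and the deviations of same-numbered arrays correlated at 0.251 with only 2 pairs. With the replicate number as a block, 2 member probe sets had lower values at the unadjusted p, both of Nov, 3 had higher values, and 0 passed the adjusted p. Values near background limit what can be seen for Nov, Wisp2 and Ankrd1.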
